A study of Mus musculus with 4 samples.

Results

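The 113 genes with symbols in the range from Zfp700 to Zfp999 were taken from the 19354 genes measured by RNA-Seq in HSCs. The rule uses the symbol alone and no measured value. HSCs sorted as LSK FLT3-CD48-CD150+ cells came from Mx1-Cre Id2+/+ and Mx1-Cre Id2 fl/fl mice aged 8 to 16 weeks, all of which had received pIpC 2 weeks before. Mx1-Cre is an interferon-inducible recombinase that acts in many tissues besides blood, and pIpC triggers it, so both genotypes carried the transgene and the treatment, and the floxed gene was removed in the second genotype (Id2Δ/Δ). Cells of 14 Id2+/+ and 15 Id2 fl/fl mice were pooled over 2 experiments, and each genotype gave 2 libraries, here replicates 1 and 2. The labels do not say which experiment or which mice a library came from, so the p-values measure the spread between these libraries, which may be technical.

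Zinc finger proteins of the C2H2 kind read DNA through strings of small zinc-holding loops, each of which touches a few bases. Many mouse members carry a KRAB domain at the start of the protein, which binds the corepressor Trim28 and brings in enzymes that lay down repressive chromatin, and a main known task of this class is to silence retroviral repeats. These genes multiply by local duplication, so neighbours on a chromosome often resemble each other in sequence. Other numbered Zfp genes have few fingers, no KRAB domain and unrelated tasks.

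Of the 113 genes, 111 had an annotated coding part, and Zfp783 and Zfp939 are annotated as transcribed pseudogenes. A KRAB match, meaning at least 14 of 36 conserved positions of the KRAB region as the members themselves define it, was present in 87 of the 111. These 87 held 16 to 35 of the positions and the other 24 held 4 to 11, with Zfp746 at 11 and Zfp956 at 10 nearest to the limit from below and Zfp786 at 16 nearest from above. The split is by likeness to these positions, and a member without a match may still carry a KRAB domain unlike them. The encoded proteins had 0 to 23 C2H2 fingers, with a median of 11 among the KRAB matches and 6 among the rest. The nucleotide motif of the short linker between neighbouring fingers, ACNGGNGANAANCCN, was spelled from 974 junctions between neighbouring fingers of the members themselves, with a base given where at least 85% of the junctions carry it and N elsewhere. Searched on the coding strand alone, it was found in the coding part of 96 of the 111 members (86.5%), in 157 of 220 numbered Zfp genes below Zfp700 (71.4%) and in 166 of 13165 other genes with a coding part (1.26%). Since the members gave the motif, their share is a description. A stretch of Zfp719, the member with the smallest p-value in the genotype comparison, is shown because it carries 3 copies of the linker, in capitals, with the fingers in lower case between them. It covers coding bases 1021 to 1272 on the plus strand, at chr7:43590010-43590261 of GRCm38.
Zfp719: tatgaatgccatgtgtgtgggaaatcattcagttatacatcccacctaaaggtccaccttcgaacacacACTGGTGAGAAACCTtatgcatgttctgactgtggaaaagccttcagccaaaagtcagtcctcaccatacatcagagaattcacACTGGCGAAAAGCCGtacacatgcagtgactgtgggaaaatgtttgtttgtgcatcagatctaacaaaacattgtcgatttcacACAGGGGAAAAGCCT

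Sequence shared between genes could bear on the values of the members that carry it, because a read from a shared stretch could belong to either gene. How such reads were counted is not given in the sources used here, and the effect on the values was not tested. The 50-base coding word carried by the most members is shown for that reason. It stands in 10 of them, Zfp820, Zfp943, Zfp946, Zfp994 and Zfp995 on chromosome 17 and Zfp984, Zfp990, Zfp991, Zfp992 and Zfp993 on chromosome 4, for example at chr17:22200140-22200189 in Zfp994 on the minus strand and at chr4:147178940-147178989 in Zfp991 on the plus strand. Capitals mark the 15 bases of the linker.
Shared word: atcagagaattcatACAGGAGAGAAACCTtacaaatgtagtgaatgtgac

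Zfp991 and Zfp992 were the most alike, with coding parts of 1719 bases that differ at 8 positions (99.5% identical). The 60-base windows below, at chr4:147178772-147178831 and chr4:146466428-146466487 on the plus strand, hold 1 of the 8 differences, in capitals. Zfp987 and Zfp988, with coding parts of 1899 bases, differ at 94 positions (95.1% identical), and their windows, at chr4:146125565-146125624 and chr4:147332676-147332735 on the plus strand, hold 12 of them, within a finger.
Zfp991: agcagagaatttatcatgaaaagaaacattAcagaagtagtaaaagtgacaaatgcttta
Zfp992: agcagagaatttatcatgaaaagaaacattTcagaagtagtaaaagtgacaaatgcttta
Zfp987: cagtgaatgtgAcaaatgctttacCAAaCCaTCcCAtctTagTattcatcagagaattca
Zfp988: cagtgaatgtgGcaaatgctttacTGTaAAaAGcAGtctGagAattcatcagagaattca

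Over whole transcripts, with words sought on both strands, 17 of the 113 members shared no 50-base word with any other annotated transcript. Of the rest, 68 shared under 20% of their words and 28 shared 20% or more. These shares can include words of a gene that overlaps the member at the same place, on either strand. In all, 50 members overlap another annotated gene on either strand, 34 of them a gene on the opposite strand. Strand use in counting is not given in the sources used here, so reads of such partners cannot be told apart.

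The deposited values are quantile-normalized log2 counts-per-million (CPM), and reads were recovered from the order of the values below 32 CPM. Depth was 14500000 and 16000000 reads in the Id2+/+ and 17800000 and 18200000 reads in the Id2Δ/Δ libraries. Reads of the genotypes are therefore not comparable as they stand, and fold changes are those of the CPM values. Genes listed with 0 reads numbered 170 and 183 in the Id2+/+ libraries, 606 in Id2Δ/Δ replicate 1 and 326 in Id2Δ/Δ replicate 2, so Id2Δ/Δ replicate 1 stood apart. Reads of Id2 itself numbered 93 and 98 in Id2+/+ and 0 in both Id2Δ/Δ libraries, and with a floor of 3 reads per library the level was at least 37.7-fold lower. The 8 HSC marker genes used for the check (Kit, Ly6a, Slamf1, Procr, Mecom, Hlf, Fgd5 and Mllt3) were all among those tested. Their summed level was 3607 and 3457 CPM in Id2+/+ and 2501 and 2771 CPM in Id2Δ/Δ libraries, and 4 of the 8 were lower and 1 higher in both Id2Δ/Δ libraries, beside 15.8% lower and 19.0% higher of all genes tested. The 8 neutrophil genes, all in the table, summed to 142.6 and 52.3 CPM in Id2+/+ and to 109.9 and 26.4 CPM in Id2Δ/Δ libraries, so replicate 1 was higher in both genotypes. Markers of other blood cells summed to 25.3 to 39.3 CPM for 6 of 7 erythroid genes, 33.6 to 51.0 CPM for 2 of 5 B-cell genes and 21.2 to 23.5 CPM for 1 of 4 T-cell genes. Those of megakaryocytes, 5 of 5 genes, summed to 339 and 323 CPM in Id2+/+ and 398 and 410 CPM in Id2Δ/Δ libraries, and those of monocytes and dendritic cells, 3 of 5 genes, to 302 and 278 CPM and to 217 and 216 CPM. The part of these shifts in the results below was not tested, and fewer cells of a type cannot be told apart from less RNA per cell in bulk libraries.

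The members were mostly transcribed at low to middle levels. Mean level was under 1 CPM for 8 of the 113 genes, 1 to 10 CPM for 17, 10 to 32 CPM for 55, 32 to 100 CPM for 28 and at least 100 CPM for 5. Levels of different genes were compared per kb of the longest annotated transcript, which ran from 561 to 13834 bases among the members. On that scale, the median was 6.80 CPM per kb for the 105 members that reached a mean of 1 CPM, 7.58 CPM per kb for 215 numbered Zfp genes below Zfp700 and 9.35 CPM per kb for all genes at or above that mean. The median GC content of the longest transcript was 40.7% for the 105 members and 49.2% for all such genes.

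The gene with the highest level per kb was Zfp706, which encodes a protein of 76 residues with 1 finger. It stood at 396 and 386 CPM in the Id2+/+ libraries and at 414 and 391 CPM in the Id2Δ/Δ libraries, a mean of 89.8 CPM per kb. The genotypes overlapped. Next came Zfp869 at 39.4 CPM per kb, Zfp740 at 37.7, Zfp809 at 29.2, Zfp950 at 29.0 and Zfp746 at 27.5 CPM per kb. In all 6, the Id2Δ/Δ and Id2+/+ libraries overlapped, and the log2 fold change between genotypes (Id2Δ/Δ minus Id2+/+, on the log2 CPM scale) lay between -0.13 and 0.04. Zfp809 is a KRAB protein known for silencing retroviruses in embryonic stem cells, and its level was 51.8 and 57.8 CPM in Id2+/+ and 46.4 and 54.0 CPM in Id2Δ/Δ libraries. Zfp746, a repressor known as PARIS that parkin marks for degradation, was at 96.1 and 103 CPM in Id2+/+ and at 107 and 95.3 CPM in Id2Δ/Δ libraries.

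At the other end were the 8 members under the filter of 1 CPM, namely Zfp750, Zfp811, Zfp853, Zfp936, Zfp972, Zfp978, Zfp993 and Zfp995, which were not tested. Zfp936 had 4 reads in each Id2+/+ library and 1 and 6 reads in the Id2Δ/Δ libraries. Zfp750, a factor of epidermal differentiation, had 11 and 24 reads in Id2+/+ and 13 and 12 reads in Id2Δ/Δ libraries. Zfp853 was the only member with a library at 0 reads, Id2+/+ replicate 1, and had 10, 8 and 10 reads in the other 3 libraries. At these depths a count of 0 allows up to 3 reads, or 0.165 to 0.207 CPM, which covers counting error only.

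By architecture, the 87 KRAB matches had a median of 6.19 CPM per kb with a range of 0.0794 to 39.4, and the 24 members without a match had a median of 8.87 CPM per kb with a range of 0.142 to 89.8. Coding members with 0 to 3 fingers, 15 genes, had a median of 7.61 CPM per kb, those with 5 to 9 fingers, 27 genes, 6.62, those with 10 to 14 fingers, 48 genes, 5.37, and those with 15 to 23 fingers, 21 genes, 6.80 CPM per kb. The ranges of the classes lay over each other, as the plot of level by finger number shows.

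**Figure D1:**
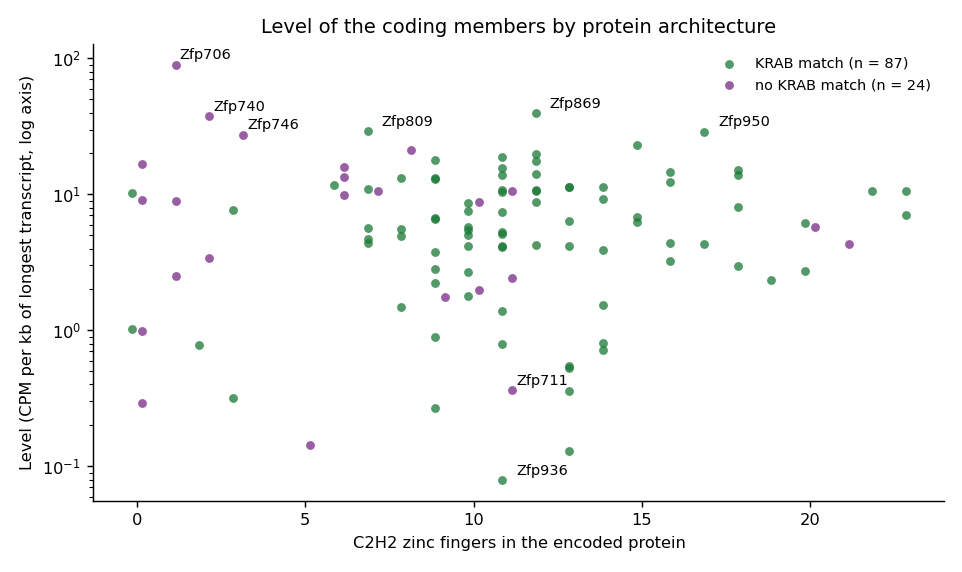
Level of the 111 coding members, as mean CPM of 4 libraries per kb of the longest transcript (log axis), against the number of C2H2 fingers in the encoded protein. Each point is a gene, green with and purple without a KRAB match; both classes cover most of the range, and Zfp706 with 1 finger is highest at 89.8 CPM per kb.

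The genotypes were compared to look for genes and pathways behind the exhaustion of HSCs that lack Id2. With limma fitted to all 15895 genes that reached a mean of 1 CPM, and Benjamini-Hochberg adjustment over them, 0 of the 105 members tested passed an adjusted p of 0.05. Nor did any other gene (0 of 15895, 0%), and the smallest adjusted p among the members was 0.91. The deleted gene Id2 was also tested and not called, at a log2 fold change of -7.31 (limma, adjusted p = 0.91). The fit thus missed a known loss, and the count of 0 members is no measure of how many changed. At an unadjusted p under 0.05 there were 8 members (7.62%), beside 4.67% of all genes tested. Of the 8, 5 were higher and 3 lower in Id2Δ/Δ HSCs, beside 1.72% higher and 2.95% lower of all genes tested. For 1 gene alone, an exact permutation of 2 against 2 libraries cannot give a two-sided p below 0.33.

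Both Id2Δ/Δ libraries stood above both Id2+/+ libraries in 21 of the 105 members and below them in 21, which is 20% each, beside 19.0% and 15.8% of all genes tested. The median log2 fold change of the members was -0.03, with 47 higher and 58 lower, and that of all genes tested was 0.01, with 51.7% higher. Differences ran from -0.95 for Zfp759 to 1.45 for Zfp964, in both of which the genotypes overlapped, and 13 of the 105 exceeded 1.5-fold in either direction. Without Id2Δ/Δ replicate 1 the value of Zfp759 was -0.29. The quartiles were -0.24 and 0.23. Libraries of the same genotype differed in these genes by a median of 0.24 for Id2+/+ and 0.32 for Id2Δ/Δ, without regard to sign. These are differences of single libraries, and the former are differences of means of 2.

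The medians of the members differed most between the Id2Δ/Δ libraries themselves. Relative to each gene's own mean, the median member was at 0.00 in both Id2+/+ libraries, at 0.09 in Id2Δ/Δ replicate 1 and at -0.06 in Id2Δ/Δ replicate 2 on the log2 scale, where all genes tested had medians of -0.00 to 0.02. Without Id2Δ/Δ replicate 1 the median log2 fold change of the members was -0.09, and without Id2Δ/Δ replicate 2 it was 0.10, so its sign rests on which of them is used.

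**Figure D2:**
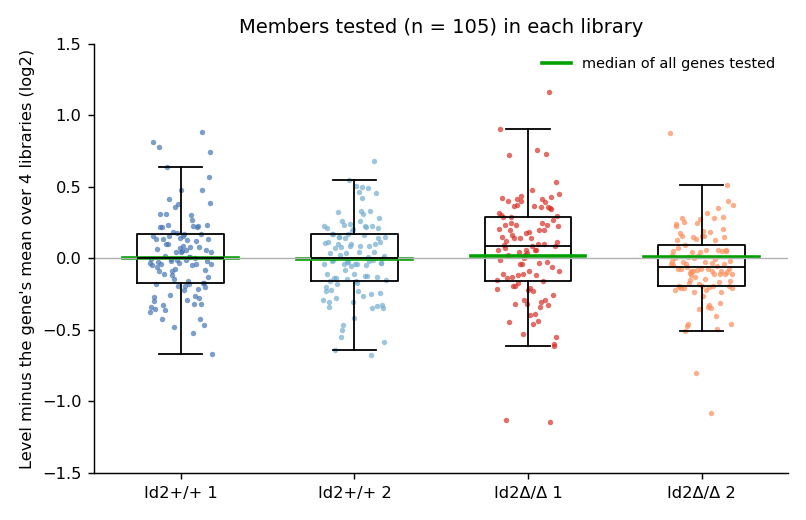
Level of each of the 105 members tested minus that gene's mean over the 4 libraries (log2), by library. Points are genes, boxes span the quartiles with the median as a black line, whiskers reach 1.5 times the box, green lines are the medians of all genes tested, and 2 points lie outside the axis; the Id2Δ/Δ replicate 1 median is at 0.09 and that of replicate 2 at -0.06.

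Among members higher in both Id2Δ/Δ libraries, 6 with the smallest p-values were Zfp719, Zfp994, Zfp738, Zfp764, Zfp971 and Zfp954, all with a KRAB match. They are described by their values, since none passed the test (limma, adjusted p = 0.91 for each). Zfp719 (ENSMUSG00000030469.10, chr7:43579610-43593235 of GRCm38) encodes 13 fingers and stood at 22.0 and 22.7 CPM in Id2+/+ libraries and at 37.6 and 33.1 CPM in Id2Δ/Δ libraries. The log2 means were 4.48 ± 0.03 and 5.14 ± 0.13 (SD, n = 2 each), a difference of 0.66 ± 0.18 (SE). Each library of 1 genotype lay close to its partner.

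Zfp994 (ENSMUSG00000096433.1, chr17:22197265-22225616), with 17 fingers, had 181 and 283 reads in Id2+/+ and 487 and 499 reads in the deeper Id2Δ/Δ libraries. The difference on the log2 CPM scale was 0.82 ± 0.24 (SE), and the Id2+/+ libraries were further apart than the Id2Δ/Δ libraries. Zfp738 (ENSMUSG00000048280.17, chr13:67658685-67687071), with 20 fingers and a longest transcript of 13215 bases, was at 31.2 and 27.8 CPM in Id2+/+ and at 43.1 and 41.3 CPM in Id2Δ/Δ libraries, a difference of 0.52 ± 0.17 (SE). It overlaps annotated genes on the opposite strand.

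Zfp764, with 9 fingers, had 225 and 166 reads in Id2+/+ and 385 and 375 reads in the deeper Id2Δ/Δ libraries. In CPM this is 15.9 and 10.5 against 21.5 and 19.9, a difference of 0.68 ± 0.27 (SE), or of 0.38 without Id2+/+ replicate 2. For Zfp971, with 12 fingers, 246 and 241 reads in Id2+/+ stood against 439 and 411 reads in the deeper Id2Δ/Δ libraries. On the log2 CPM scale the difference was 0.51 ± 0.21 (SE). Zfp954, with 8 fingers, was at 22.95 and 22.4 CPM in Id2+/+ and at 35.0 and 27.7 CPM in Id2Δ/Δ libraries, a difference of 0.46 ± 0.20 (SE), or of 0.29 without Id2Δ/Δ replicate 1. In Zfp954 the lower Id2Δ/Δ library was nearer to the Id2+/+ libraries than to its partner on the linear scale.

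Of members lower in both Id2Δ/Δ libraries, 6 with the smallest p-values were Zfp831, Zfp956, Zfp943, Zfp970, Zfp788 and Zfp946 (limma, adjusted p = 0.91 for each). Zfp831 (ENSMUSG00000050600.5, chr2:174643534-174710832), without a KRAB match and with 1 finger in 1628 residues, was at 29.9 and 33.99 CPM in Id2+/+ and at 21.6 and 13.4 CPM in Id2Δ/Δ libraries. The log2 means were 4.99 ± 0.13 and 4.09 ± 0.49 (SD, n = 2 each), and the difference was -0.91 ± 0.27 (SE), which was -0.56 without Id2Δ/Δ replicate 2. The Id2Δ/Δ libraries were further from each other than the Id2+/+ libraries were. It shares no 50-base word with another transcript.

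Zfp956 (ENSMUSG00000045466.18, chr6:47953390-47965300) was at 43.5 CPM in both Id2+/+ libraries and at 30.4 and 33.1 CPM in Id2Δ/Δ libraries, a difference of -0.46 ± 0.16 (SE). Its span overlaps that of the pseudogene Zfp783 (chr6:47943171-47955913) on the same strand. Zfp783 was at 102.5 and 106 CPM in Id2+/+ and at 83.7 and 91.6 CPM in Id2Δ/Δ libraries, a difference of -0.25 ± 0.13 (SE). How the reads of the common stretch were divided is not given in the sources used here, so these are not independent observations.

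Zfp943, with 11 fingers, was at 34.3 and 32.6 CPM in Id2+/+ and at 20.6 and 26.2 CPM in Id2Δ/Δ libraries, a difference of -0.53 ± 0.20 (SE). Its annotated span overlaps 6 genes on the opposite strand. Zfp970, with 14 fingers, had 262 and 283 reads in Id2+/+ and 108 and 285 reads in Id2Δ/Δ libraries, which is 18.6 and 18.3 CPM against 6.04 and 15.3 CPM. The difference of -0.94 ± 0.42 (SE) rests on Id2Δ/Δ replicate 1, without which it was -0.27.

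Zfp788, with 23 fingers and no shared word, was at 28.6 and 31.9 CPM in Id2+/+ and at 23.3 and 23.6 CPM in Id2Δ/Δ libraries, a difference of -0.36 ± 0.18 (SE). Zfp946 had 254 and 277 reads in Id2+/+ and 217 and 264 reads in Id2Δ/Δ libraries, or 17.9 and 17.8 CPM against 12.1 and 14.2 CPM, and differed by -0.45 ± 0.23 (SE). Reads of Zfp946 overlapped between genotypes before the libraries were scaled to each other, and the CPM values did not.

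**Figure D3:**
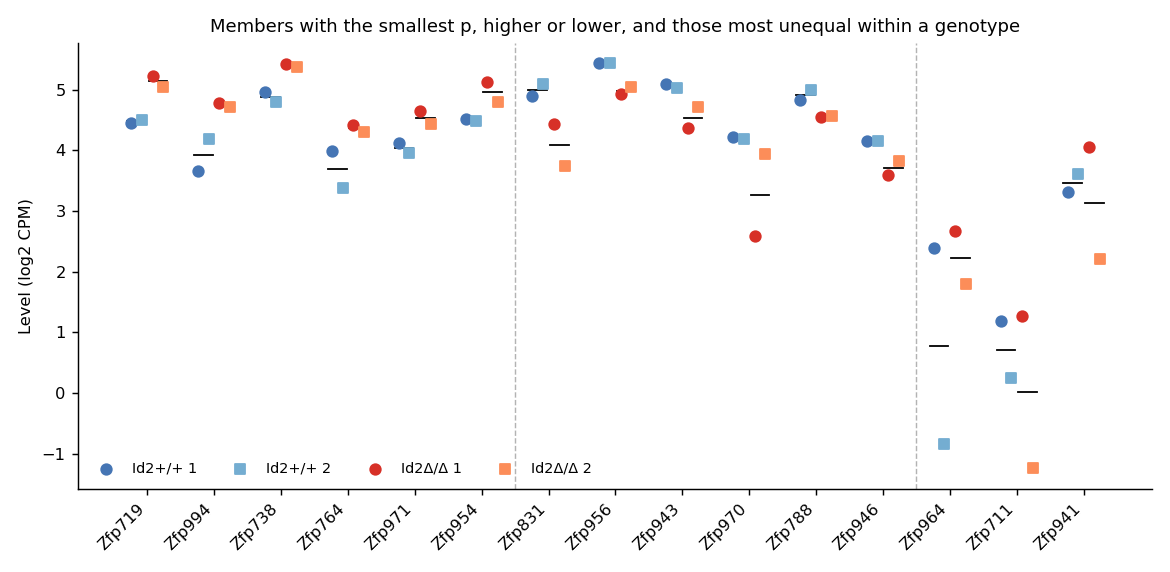
Level (log2 CPM) of 15 members in each library, with Id2+/+ in blue and Id2Δ/Δ in red, replicate 1 as circles and replicate 2 as squares, and the genotype mean as a black line. From left to right are the 6 with the smallest p higher, the 6 lower and 3 of the 4 most unequal within a genotype; in the last 3 the genotypes overlap.

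Members with the largest difference between libraries of the same genotype were Zfp964, Zfp711, Zfp941 and Zfp970. Zfp964 had 76 and 9 reads in Id2+/+ and 113 and 59 reads in Id2Δ/Δ libraries. Its log2 fold change of 1.45 ± 0.98 (SE), the largest among the members, rests on Id2+/+ replicate 2, without which it was -0.16. Zfp711, an X-linked gene whose protein works with the histone demethylase Phf8 at promoters, had 33 and 19 reads in Id2+/+ and 43 and 7 reads in Id2Δ/Δ libraries. Its log2 fold change was -0.70 ± 0.95 (SE), and 0.56 without Id2Δ/Δ replicate 2. Zfp941 had 143 and 192 reads in Id2+/+ and 295 and 81 reads in Id2Δ/Δ libraries, and its log2 fold change went from -0.32 to 0.59 without Id2Δ/Δ replicate 2. In all 3 the genotypes overlapped.

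Several members have a described role, and none of them passed the test. Zfp932 is a KRAB protein known to repress endogenous retroviruses, and it shares 42.6% of its 50-base words with its near copy Gm15446. It stood at 50.4 and 59.4 CPM in Id2+/+ and at 61.1 and 59.8 CPM in Id2Δ/Δ libraries, a difference of 0.14 ± 0.16 (SE) that was 0.025 without Id2+/+ replicate 1. Zfp703, a corepressor without fingers by the pattern used, had 33 and 38 reads in Id2+/+ and 45 and 95 reads in Id2Δ/Δ libraries. Its difference of 0.66 ± 0.53 (SE) was 0.12 without Id2Δ/Δ replicate 2.

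Zfp830, a nuclear protein of the splicing machinery, was at 25.4 and 26.2 CPM in Id2+/+ and at 25.9 and 29.3 CPM in Id2Δ/Δ libraries. Zfp827, which brings the NuRD complex to telomeres, had 135 and 230 reads in Id2+/+ and 313 and 219 reads in Id2Δ/Δ libraries, and the genotypes overlapped. Zfp800 was at 56.1 and 65.4 CPM in Id2+/+ and at 87.1 and 63.2 CPM in Id2Δ/Δ libraries, and Zfp768 at 25.2 and 22.7 CPM and at 15.9 and 24.1 CPM. In both of these genes Id2Δ/Δ replicate 1 lay apart from the other 3 libraries. Zfp704, which has the longest transcript of all members at 13834 bases, was at 121 and 145 CPM in Id2+/+ and at 112 and 121 CPM in Id2Δ/Δ libraries. Its difference of -0.19 ± 0.14 (SE) was -0.066 without Id2+/+ replicate 2 and became 0.00 after the correction for transcript length. Zfp977, with a transcript of 1425 bases, had 27 and 38 reads in Id2+/+ and 29 and 35 reads in Id2Δ/Δ libraries.

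Among the tested members, the 81 with a KRAB match had a median log2 fold change of -0.03, with 36 higher, and the 22 coding members without one had a median of 0.01, with 11 higher. Both Id2Δ/Δ libraries were above both Id2+/+ libraries in 18 of the 81 and below in 16, and in 3 and 4 of the 22, where 19.0% of all genes tested were above and 15.8% below. By number of fingers the medians were 0.02 for 0 to 3, -0.00 for 5 to 9, -0.07 for 10 to 14 and 0.02 for 15 to 23 fingers. The median of all 105 had a pooled SD of 0.074 (log2) between libraries of one genotype.

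Transcript length was examined for the members, and across all genes it went with the fold change. Over 15855 genes of known length, Spearman's rho between longest transcript and log2 fold change was -0.21, and over the 105 members it was 0.08; both are across genes of the same 4 libraries, and genes are not independent replicates. The terciles of length over all genes tested were 2144 and 3874 bases, and most members fell in the middle class, with 14 short, 55 middle and 36 long. Among all genes the median log2 fold change went from 0.09 for short to 0.02 for middle and -0.06 for long transcripts. Among the members it was -0.02, -0.09 and 0.02. Thus the members did not follow the order of all genes, although the class of short members is small and no test of that difference was made. Relative to each gene's own mean, the long members had a median of 0.13 in Id2Δ/Δ replicate 1 and of -0.04 in replicate 2. All long genes had medians of -0.03 and -0.01 there, so the long members stood above them in Id2Δ/Δ replicate 1 and not in replicate 2.

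After a spline of log2 length was taken off each library, the median log2 fold change was 0.01 for the members, with 54 of 105 higher, and 0.03 for all genes tested. By class it was -0.04 for short, -0.07 for middle and 0.10 for long members. The correction moved Zfp738, with a transcript of 13215 bases, from 0.52 to 0.71, Zfp831, with 9807 bases, from -0.91 to -0.76, Zfp719 from 0.66 to 0.71 and Zfp994 from 0.82 to 0.88.

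**Figure D4:**
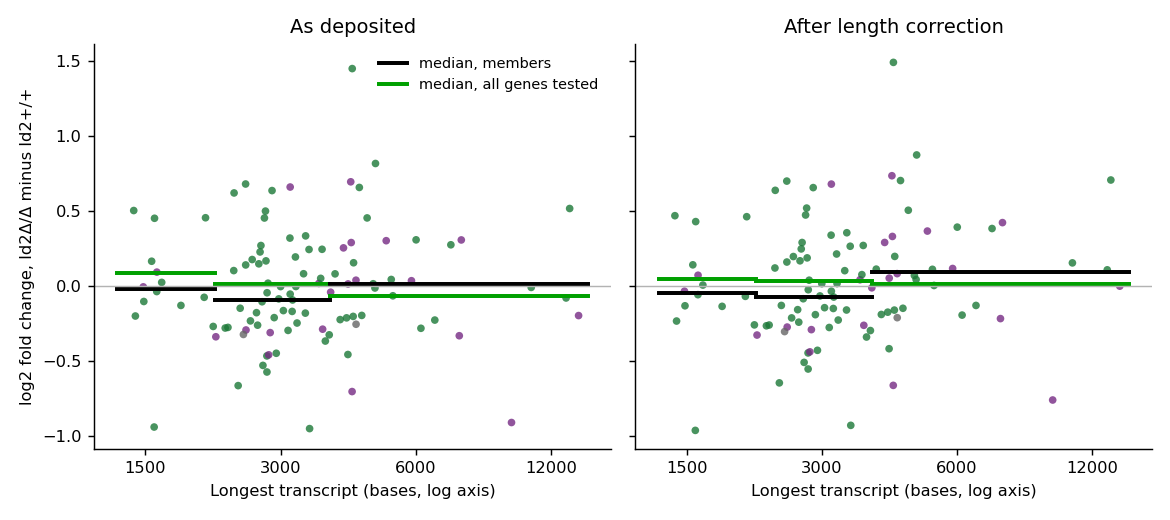
log2 fold change (Id2Δ/Δ minus Id2+/+) of the 105 members tested against the longest transcript in bases (log axis), as deposited on the left and after the length correction on the right. Points are genes, green with and purple without a KRAB match and grey without a coding part, and lines are medians within terciles of length, black for members and green for all genes tested; on the left the green line steps down from 0.09 to -0.06 and the black line does not.

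The members lie on 16 chromosomes, and 67 of them form 10 clusters of at least 4 members with no gap over 1 Mb between neighbours. Of the 67 clustered members 60 had a KRAB match, and of the 46 others 27 had one. By the sign of the log2 fold change alone, each of the 10 clusters held members higher and members lower in Id2Δ/Δ HSCs. These signs include members whose genotypes overlapped. Zfp964, the only higher member in the chromosome 8 cluster, and Zfp759, the only lower one in the chromosome 13 cluster, are among them. The largest cluster, on chromosome 17 from 21567008 to 22867134, holds 13 members. Of its 12 tested, 4 were higher and 8 lower, and both Id2Δ/Δ libraries were above both Id2+/+ libraries in 3 (Zfp947, Zfp994 and Zfp944) and below them in 3 (Zfp760, Zfp943 and Zfp946). The cluster on chromosome 4 from 145510759 to 147848366 holds 12 members at a median of 2.96 CPM per kb, with a median of 48.8% of their words shared. There, 3 of the 10 tested were higher and 7 lower, with Zfp985 above and Zfp987, Zfp992 and Zfp933 below in both Id2Δ/Δ libraries. Of all genes tested, 19.0% were above and 15.8% below in this way.

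In the chromosome 4 cluster, near-identical members were counted separately. Zfp991, whose sequence beside that of Zfp992 is shown above, had 162 and 185 reads in Id2+/+ and 242 and 182 reads in Id2Δ/Δ libraries, a log2 fold change of 0.02 ± 0.27 (SE). Zfp992 had 339 and 401 reads in Id2+/+ and 391 and 407 reads in the deeper Id2Δ/Δ libraries, which is 23.97 and 25.7 CPM against 21.9 and 21.6 CPM, a log2 fold change of -0.19 ± 0.19 (SE). Zfp987 had 42 and 31 reads against 23 and 32, and Zfp988 43 and 28 reads against 43 and 34. With coding parts this alike, a read can fit either gene of a pair, so each of these 4 values is uncertain.

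On chromosome 2 from 177464733 to 178078476, the 3 tested members of the cluster did not go one way. Zfp970 was lower, as given above, while Zfp971 and Zfp931 were higher in both Id2Δ/Δ libraries. Zfp931 had 205 and 226 reads in Id2+/+ and 415 and 312 reads in the deeper Id2Δ/Δ libraries. Its log2 fold change on the CPM scale was 0.45 ± 0.25 (SE), and 0.20 without Id2Δ/Δ replicate 1. Zfp970 and Zfp971 share 52.2% and 40.0% of their words with other transcripts, and 132 coding words with each other. The longest coding stretch that both carry, 103 bases ahead of the fingers in the part that gave the KRAB match, is shown because it lies in a pair whose values point in opposite directions. It stands at chr2:177473310-177473412 in Zfp970 and at chr2:178031279-178031381 in Zfp971, on the plus strand.
Zfp970 and Zfp971: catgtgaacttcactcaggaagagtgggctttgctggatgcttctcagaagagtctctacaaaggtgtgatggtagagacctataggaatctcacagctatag

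On chromosome 7 from 6131491 to 7209998, Zfp954 and Zfp772 were higher and Zfp787 was lower in both Id2Δ/Δ libraries. Zfp772 had 174 and 210 reads in Id2+/+ and 323 and 343 reads in the deeper Id2Δ/Δ libraries. In CPM this is 12.2 and 13.5 against 18.1 and 18.2, a log2 fold change of 0.50 ± 0.22 (SE). Further along, from 127244274 to 127406822, the neighbours Zfp747 and Zfp764 share 110 coding words. Over whole transcripts, both share most with another gene, 9130019O22Rik, at 29.2% of the words of Zfp747 and 18.2% of those of Zfp764. Zfp747 had 152 and 137 reads in Id2+/+ and 185 and 193 reads in the deeper Id2Δ/Δ libraries. In CPM this is 10.5 and 8.62 against 10.6 in both Id2Δ/Δ libraries. Its log2 fold change of 0.15 ± 0.27 (SE) ran from 0.0062 to 0.30 with single libraries left out, beside 0.68 for Zfp764. On chromosome 6 from 47819266 to 48623227, 4 of 6 members were lower, 3 of them (Zfp783, Zfp956 and Zfp777) in both Id2Δ/Δ libraries. Zfp783 and Zfp956 overlap on the same strand and are not independent, and 15.8% of all genes tested were below in this way. The 44 tested members outside the clusters had a median log2 fold change of 0.02, with 23 higher.

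**Figure D5:**
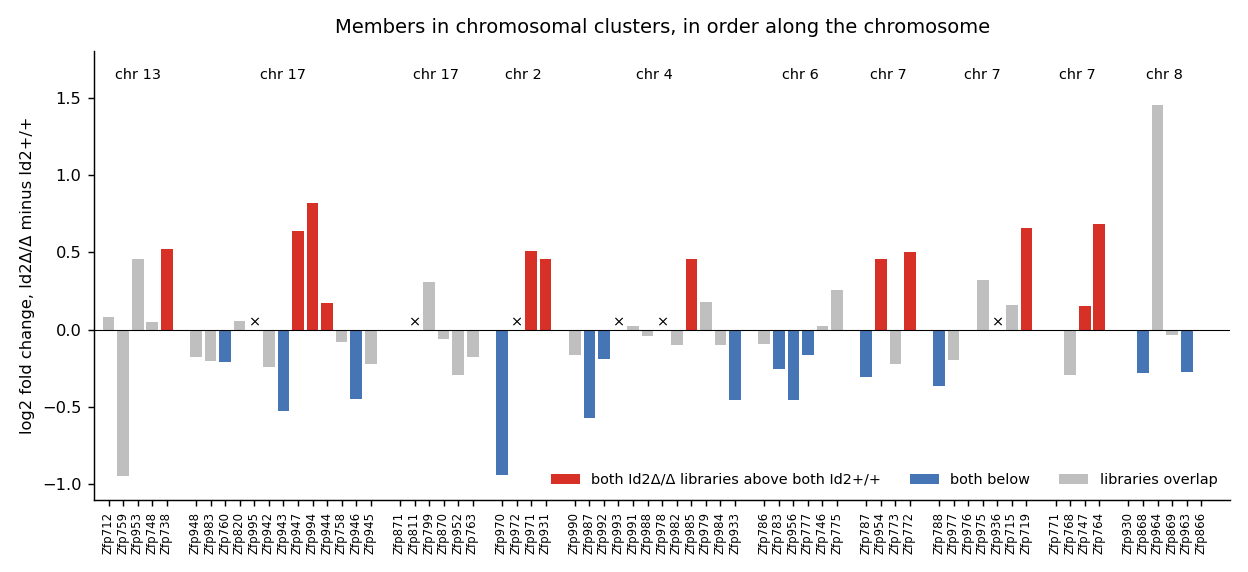
log2 fold change (Id2Δ/Δ minus Id2+/+) of the 67 members in 10 chromosomal clusters, in order along each chromosome, with crosses for members under the filter. Red bars are members with both Id2Δ/Δ libraries above both Id2+/+ libraries, blue bars those with both below and grey bars those that overlap. Bars of both signs stand in each of the 10 clusters, grey bars included.

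Spread between libraries of one genotype was also set beside the share of sequence. The 8 tested members with at least 50% of their words shared differed by a median of 0.42 (log2, without regard to sign) between Id2+/+ libraries and of 0.48 between Id2Δ/Δ libraries, where the 16 tested members without shared words had 0.27 and 0.24. The 64 with some but under 20% shared had 0.22 and 0.33, and the 25 with 20% or more, among them those 8, had 0.28 and 0.37. With the share of words, the medians thus rose steadily between Id2Δ/Δ libraries and not between Id2+/+ libraries. These differences were not tested. The median level was 6.95 CPM in all 10 members of the first class and 26.0 CPM in all 17 of the second, so the most shared class was also the lower in level. Zfp784 shares 94.7% of its words with Zfp865, which runs over it on the opposite strand. Zfp784 was at 26.0 and 21.4 CPM in Id2+/+ and at 23.2 and 15.1 CPM in Id2Δ/Δ libraries, and Zfp865 at 55.8 and 41.3 CPM and at 43.6 and 33.5 CPM. The order of the 4 libraries was the same in both genes, Id2+/+ replicate 1 highest and Id2Δ/Δ replicate 2 lowest.

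Numbered Zfp genes below Zfp700, 215 tested, had a median log2 fold change of -0.03, with 99 higher, and both Id2Δ/Δ libraries were above both Id2+/+ libraries in 33 (15.3%, beside 19.0% of all genes tested) and below them in 42 (19.5%, beside 15.8%). At an unadjusted p under 0.05, 5 were higher (2.33%, beside 1.72%) and 12 lower (5.58%, beside 2.95%), and limma called 0 after adjustment. Of 23 measured corepressor and heterochromatin genes that KRAB proteins work through, 22 were tested, and 11 were higher and 11 lower. None was called by limma, and 1 of the 22 had an unadjusted p under 0.05, beside 4.67% of all genes tested. Trim28, the scaffold that KRAB domains bind, was at 8.10 and 8.28 log2 CPM in Id2+/+ and at 8.32 and 8.24 log2 CPM in Id2Δ/Δ libraries. Setdb1, its histone methyltransferase, was at 6.65 and 6.60 log2 CPM in Id2+/+ and at 6.78 and 6.85 log2 CPM in Id2Δ/Δ libraries, a log2 fold change of 0.19 ± 0.12 (SE). Dnmt3a, a DNA methyltransferase that sets new marks, was the gene under the unadjusted threshold, at 8.01 and 7.91 log2 CPM in Id2+/+ and at 7.74 and 7.65 log2 CPM in Id2Δ/Δ libraries. Its log2 fold change was -0.27 ± 0.11 (SE), with an adjusted p of 0.91, and it was -0.12 after the correction for length, its longest transcript being 9685 bases.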

How the data were processed

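Per the labels, RNA from pooled sorted HSCs of each genotype was sequenced as 2 libraries. The 4 columns the authors deposited hold log2 counts-per-million (CPM) of 19354 genes, and no column was set aside. The unit is read from the values, since the columns taken back from log2 sum to 999979 to 999995, and 88.4% of ranks differ by less than 0.1 between sorted columns, as quantile normalization leaves them. The submitters' processing notes name CASAVA 1.8.4, Trimmomatic 0.30, TopHat2 2.0.8, RSEM and STAR, and the builds mm9 and NCBIM37, without their roles. The rule for reads shared between genes and the use of strand are not given in the sources used here.

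Coordinates, transcripts and coding parts are those of GENCODE M21 on GRCm38, which is not the build named in the notes, so none was taken from the other. Genes were matched by Ensembl identifier, for all 113 members (88 with the same version). Fingers and KRAB matches were read from translated coding parts, where a protein table had been planned. The KRAB region was defined by 64 residues that Zfp970 and Zfp971 share and by the 36 positions at which most of 58 members alike to it carry 1 residue.

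Reads were taken from the order of distinct values below 32 CPM. The test was limma 3.58.1, run in R 4.3.3 over the 15895 genes that reached a mean of 1 CPM (lmFit, eBayes with trend, genotype only), two-sided, with Benjamini-Hochberg adjustment. No count model was run, because reads above 32 CPM are not recovered. The limma fit and the recovery of reads were tested on simulated data. The length correction took a natural spline (5 degrees of freedom) of log2 longest transcript off each library.

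Members named are the 6 highest per kb, the 6 with the smallest p among those with libraries apart in each direction, the 4 with the largest difference within a genotype, the 2 longest, the 2 shortest, those with a described role, and those named for their protein, cluster or shared sequence. Zfp759, the end of a range, was named after its values were seen. Members, lists and tests were chosen with earlier results of these data known. Alternatives varied the pseudocount, filter, scaling, trend, length correction, replicate block and libraries included. In the list of HSC markers, 1 gene is not reported here.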

Additional observations from a re-analysis of the deposited data

How the results depend on the processing

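Other settings changed no call among the members, none of which passed an adjusted p of 0.05 under any of them. Fitted with the replicate number as a block, limma called 1 of 15895 genes, with and without the length correction, and no member, and the smallest adjusted p among the members was 0.79. Deviations of libraries with the same number had a correlation of 0.06 across genes, although the neutrophil genes were higher in replicate 1 of both genotypes. Whether these libraries pair is therefore not settled, and the main fit used genotype only. At an unadjusted p under 0.05, 742 genes, 8 members and 1 corepressor gene passed. With each library left out in turn, the median log2 fold change of the members was between -0.086 and 0.097. That of numbered Zfp genes below Zfp700 was between -0.054 and 0.00068. The members with every remaining Id2Δ/Δ library above every Id2+/+ library numbered 29 to 46 (below, 30 to 45), since fewer libraries overlap less. The share of all genes under these fits is not at hand, so these counts cannot be read beside those of the full set of libraries. The length correction moved the median of the lower-numbered Zfp genes from -0.026 to 0.031, with and without the block. Single members were checked for the 29 tested that were named by level, p-value, difference within a genotype, length or described role. Members named only for other reasons, such as cluster or shared sequence, were not in this check. Of the 29, Zfp704 alone turned with the processing, to 0.0017 under the length correction, with or without the block. Leaving out single libraries turned 9, whose log2 fold changes then ran from -0.16 to 0.088 for Zfp869, -0.13 to 0.16 for Zfp740, -0.39 to 0.43 for Zfp950, -0.062 to 0.10 for Zfp746, -0.16 to 3.07 for Zfp964, -1.96 to 0.56 for Zfp711, -1.24 to 0.59 for Zfp941, -0.59 to 0.0089 for Zfp768 and -0.015 to 0.63 for Zfp827. With 2 libraries a genotype and members at a median of 21.2 CPM, the design limits what could be called.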
